A study of Mus musculus with 26 samples.

Results

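The cells described here were microglia sorted from mouse embryonic cortex at day E15.5 after maternal immune activation (MIA) or saline, compared across all genes. A barcode was kept when it held at least 500 genes, at most 20% of its unique molecular identifiers (UMIs) on mitochondrially encoded genes, and at least 3 UMIs in all of Csf1r, C1qa, C1qb and Cx3cr1. This rule kept 22766 cells, of 24554 barcodes that passed the filter on genes and mitochondrial UMIs and of 65126 such cells in all sorted microglia libraries of the series. They came from 6 libraries, 3 per group, among the 26 samples of the series. The libraries labelled saline replicates 1, 2 and 3 held 5559, 2935 and 4477 cells, and MIA replicates 1, 2 and 3 held 4991, 3396 and 1408.

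All embryos were wild type on the C57Bl/6N background, and males and females were mixed. Their dams were injected into the peritoneum at E12.5 with saline in the control group or with Poly(I:C), double-stranded RNA made by synthesis to imitate a virus, in the MIA group. Somatosensory cortex from several embryos was pooled after removal of the meninges, microglia were sorted by flow cytometry for Cd11b, Cx3cr1 and Cd45, and RNA was read with a droplet method that counts the 3′ ends of transcripts. The labels do not name the dam or litter behind a library. The p-values below therefore measure only the spread between these samples, which may in part be technical.

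Microglia are the resident macrophages of the brain. They enter the embryonic brain from the yolk sac, survive through signals of the receptor Csf1r, and at this age clear dying cells and gather at growing axon tracts. Double-stranded RNA is sensed by Tlr3 in endosomes and by the helicases Ddx58 (RIG-I) and Ifih1 (MDA5) in the cytosol, and these pathways lead to interferons and inflammatory cytokines, which in turn switch on interferon-stimulated genes in cells that carry their receptors.

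Depth differed between libraries. The kept cells of a library held between 16335811 UMIs (MIA replicate 3) and 77035470 UMIs (saline replicate 1), with medians of 8728 to 12161 UMIs per cell. Between 3 and 241 cells per library sat at exactly 3 UMIs of the 4 selecting genes, and between 7 and 296 barcodes at 2 UMIs were left out. MIA replicate 1 had the lowest share of passing barcodes kept, 86.0% against 93.4% to 96.1% in the other 5 libraries, and 797 of its 812 barcodes left out held at least 3 UMIs of neuron markers. Most barcodes left out of the other libraries did so too. These were 211 of 224, 160 of 170 and 285 of 315 in saline replicates 1 to 3, and 190 of 204 and 56 of 63 in MIA replicates 2 and 3. Some barcodes occurred in more than 1 embryonic microglia library. They made up 16.4% of the cells of MIA replicate 3, 4.33% of saline replicate 3 and 1.12% to 1.64% of the other 4 libraries. Saline replicate 3 and MIA replicate 3 shared 152 barcodes, and the median correlation of the paired profiles was 0.774 for the same barcode against 0.601 for neighbouring barcodes. MIA replicate 3 also shared 220 barcodes with MIA replicate 2 of E13.5 (0.861 against 0.643). Medians of gene lists are therefore given together with their values when single libraries were left out. The word range after a log2 fold change likewise stands for its lowest and highest value when each of the 6 libraries was left out in turn.

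The labelled cell type was checked on markers that the rule did not use. All 31 microglial identity genes of the list were tested, the 4 of the rule included. Tmem119, a membrane protein of microglia, stood at 308, 332 and 431 counts per 1000000 UMIs (CPM) in saline and at 330, 367 and 357 CPM in MIA, in order of replicate number. P2ry12, the receptor by which microglia sense nucleotides, stood at 1488, 1849 and 2171 CPM in saline and 1989, 1985 and 2054 CPM in MIA. The groups overlapped for both genes. Csf1r, C1qa, C1qb and Cx3cr1 themselves chose the cells, so their levels say nothing of the cell type and their differences, between -0.04 and 0.02 on the log2 scale, are only a description. Of the 31 genes, 17 had a log2 fold change (MIA over saline) above 0 and 14 below, and the list's median was 0.02, from -0.11 without saline replicate 1 to 0.11 without saline replicate 3. The 4 genes of the rule enter these counts, and the median was the value of Cx3cr1 itself. Counts and median are therefore only a description and no check of the cell type. Of 38 lists examined, 7 had a median of the same sign whichever single library was left out. The largest differences were 0.37 (SE 0.31, range 0.08 to 0.60) for Crybb1, a crystallin of microglia, and -0.27 (SE 0.20, range -0.38 to -0.11) for Golm1, a Golgi membrane protein. Both were smallest without MIA replicate 1, where Crybb1 stood at 2031 CPM against 817 to 1412 CPM in the other 5 libraries. Markers of blood and lymphoid cells were at or near 0. The summed blood myeloid markers were 7.31 to 12.6 CPM per library with Ly6c2, Retnlg, Camp, Ngp and Ly6g at 0 in every library, and the summed lymphoid markers were 0.26 to 0.658 CPM with Cd3e, Nkg7 and Gzma at 0.

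The first comparison asked which genes differed between MIA and saline microglia 3 days after the injection. None of 13699 genes passed the test (0% called). The lowest adjusted p was 1.00 by the edgeR quasi-likelihood test, and 29 genes (0.212%) were under 0.05 before adjustment. That is far less than a share of 0.05, which unadjusted p-values reach when nothing differs. The test was thus strict here, and 0 calls do not show that the groups were alike. DESeq2 on the same sums also called 0 genes, with 45 under 0.05 before adjustment. Without MIA replicate 1, the edgeR test called 0 of 13803 genes (0%), with 32 under 0.05 before adjustment. No gene can therefore be said to have changed, and the values that follow are given as measured levels with their spread. Of the 2878 genes with a mean of at least 50 CPM, 2829 (98.3%) differed by less than 0.5 on the log2 scale, and the median standard error of a log2 fold change among them was 0.20. Only 8 of them differed by 1 or more. These were Spp1, Tubb3, Stmn2, Tuba1a and Map1b on the MIA side and Ube2c, Birc5 and Cenpa on the saline side, chosen after their values were seen apart from Spp1 and Tubb3. Each of the former was highest in MIA replicate 1, and each of the latter in saline replicate 1. Without MIA replicate 1, Spp1 was at -0.57 and Tubb3 at -0.48.

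Genes whose 3 MIA libraries lay entirely on 1 side of the 3 saline libraries numbered 159 above (1.16% of all genes tested) and 182 below (1.33%), 341 in all (2.49%). Among genes of at least 50 CPM there were 3 above (0.104%) and 25 below (0.869%). For a gene whose groups do not overlap, leaving out 1 library can hardly turn the sign, so its range describes size only. Cd52, a small glycosylphosphatidylinositol-anchored surface protein of leukocytes (chromosome 4, 134082448 to 134095082, GRCm38), had the lowest unadjusted p of the 25. It stood at 574, 514 and 450 CPM in saline and 347, 402 and 371 CPM in MIA, with means of 513 ± 61.8 and 373 ± 27.3 CPM (SD, n = 3 each). Each MIA library was below each saline library. Its log2 fold change was -0.46 (SE 0.15, range -0.56 to -0.36), and -0.40 without MIA replicate 1, -0.36 without saline replicate 1 and -0.48 without shared barcodes. After Benjamini-Hochberg adjustment of the edgeR test the difference did not pass.

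Hsp90b1 (chromosome 10, 86690209 to 86705509, GRCm38), the endoplasmic reticulum (ER) form of the chaperone Hsp90, was second. Its levels were 1133, 1221 and 1300 CPM in saline and 1064, 1004 and 1041 CPM in MIA. The groups did not overlap, though saline replicate 1 was close to MIA replicate 1. The log2 fold change was -0.23 (SE 0.13, range -0.27 to -0.20), and it lay between -0.27 and -0.23 without MIA replicate 1, without saline replicate 1 and without shared barcodes. The others named by the same order were Igsf6 (-0.23), 2610507B11Rik, Kmt5a (-0.19), Ogfrl1, Snx4, Prkcsh (-0.17), Cenpb (-0.16) and Yy1 (-0.14). Without MIA replicate 1 Igsf6 was at -0.13 and Prkcsh at -0.10, and without saline replicate 1 Cenpb was at -0.11. Kmt5a methylates histone H4, Prkcsh is the regulatory subunit of the ER glucosidase that trims new glycoproteins, Cenpb binds centromeric DNA and Yy1 is a zinc finger transcription factor. Yy1 stood at 136, 134 and 144 CPM in saline and at 128, 126 and 121 CPM in MIA. The 3 genes above were Sgce, Vps26a and Snap23. Vps26a, part of the retromer that sorts endosomal cargo, differed by 0.08 (SE 0.12), Snap23, which serves membrane fusion, by 0.06 (SE 0.12), and Sgce, a sarcoglycan, by 0.22 (SE 0.18). Sgce stood at 37.4, 53.8 and 53.3 CPM in saline and at 58.3, 54.9 and 55.4 CPM in MIA, and differed by 0.08 without saline replicate 1.

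**Figure D1:**
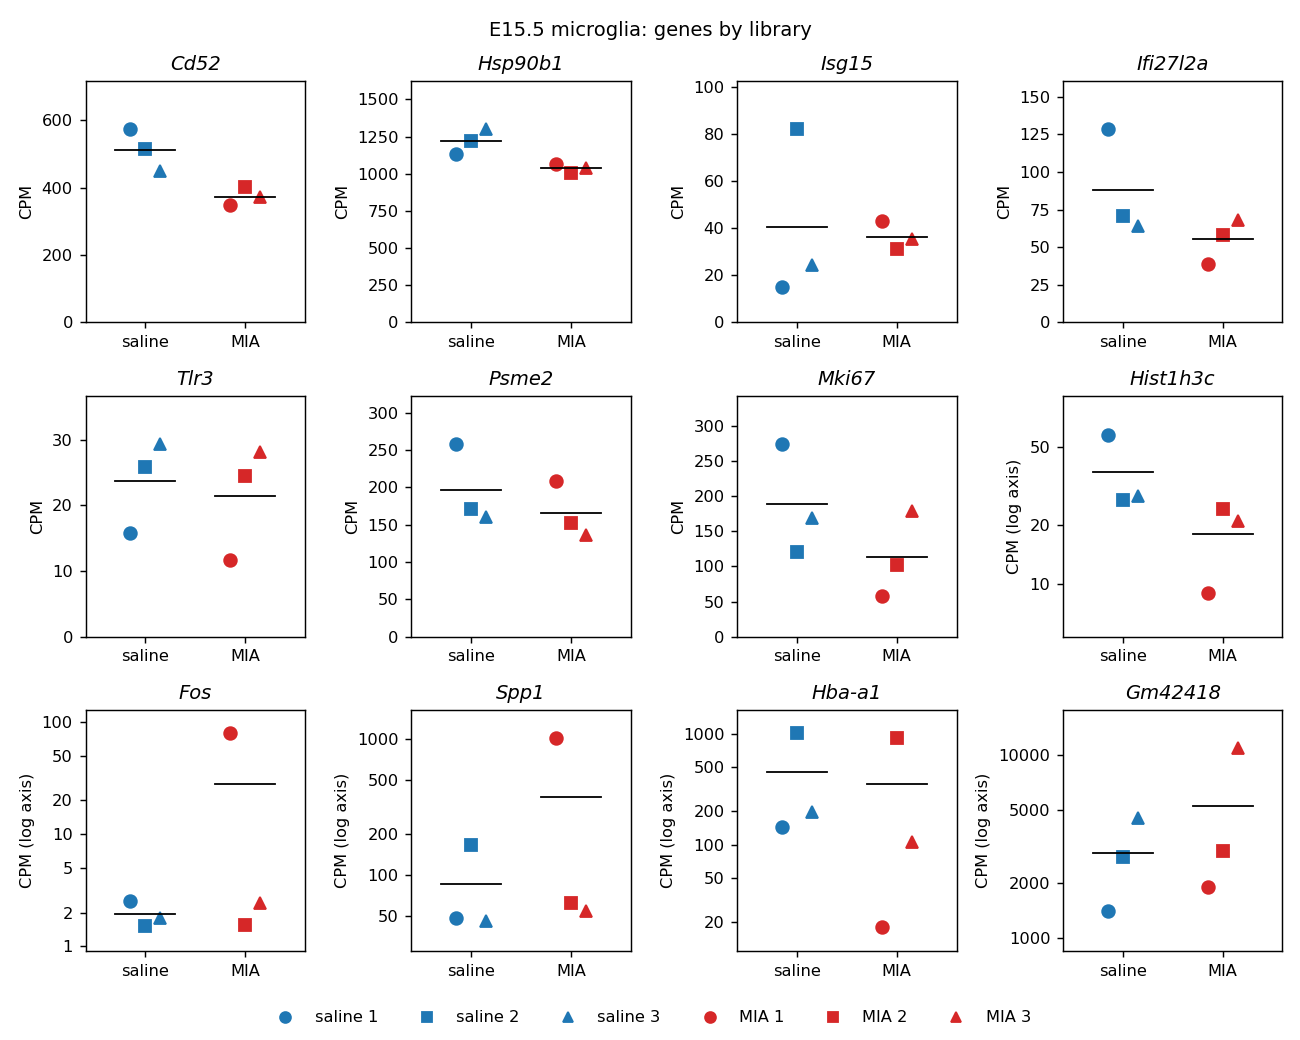
CPM of 12 genes in each of the 6 libraries, saline in blue and MIA in red, with the mean of each group as a line and the replicate number as the shape of the point. The groups did not overlap for Cd52, Hsp90b1 and Hist1h3c, while the MIA means of Fos and Spp1 were set by MIA replicate 1 at 79.9 and 1007 CPM; the last row and Hist1h3c have log axes.

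Interferon-stimulated genes form the first set that Poly(I:C) is known to act on. None of the 55 tested members was called; 48 had log2 fold changes below 0 and 7 above, against 6942 below and 6757 above among all genes. The list's median was -0.19, against -0.0024 for all genes. It was -0.05 without MIA replicate 1, and ran from -0.34 without saline replicate 1 to 0.05 without saline replicate 2, the library that thus set its sign. Within replicate numbers 1, 2 and 3 the medians of the MIA to saline ratio were -0.07, -0.49 and 0.05, so the direction was not shared by the 3 pairs.

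Isg15, a ubiquitin-like protein attached to other proteins during antiviral responses (chromosome 4, 156199424 to 156200818, GRCm38), stood at 15.1, 82.2 and 24.2 CPM in saline and at 43.0, 31.0 and 35.3 CPM in MIA. Saline replicate 2 held the highest value and saline replicate 1 the lowest. The log2 fold change was -0.15 (SE 0.59), or 0.24 in the fit blocked by replicate number, and ran from -0.55 without saline replicate 1 to 0.90 without saline replicate 2. At 2000 UMIs per cell, 2.07%, 3.60% and 1.98% of saline cells and 2.21%, 1.87% and 2.00% of MIA cells held a UMI of Isg15. Thinned to the same depth, barcodes of MIA replicate 1 that failed the 4-gene rule and held at least 3 UMIs of neuron markers had one in 2 of 520 (0.385%). Their median depth before thinning was 5658 UMIs. Ifi27l2a, an interferon-induced mitochondrial protein, stood at 128, 70.6 and 64.3 CPM in saline and at 38.7, 58.2 and 68.4 CPM in MIA. The groups overlapped, and its log2 fold change was -0.67 (SE 0.33), or -0.47 without MIA replicate 1 and -0.28 without saline replicate 1. Eif2ak2, the kinase PKR that halts translation on binding double-stranded RNA, stood at 51.9, 53.0 and 67.0 CPM in saline and at 33.0, 50.0 and 55.5 CPM in MIA, a log2 fold change of -0.31 (SE 0.23), or -0.11 without MIA replicate 1. Rtp4, an interferon-induced chaperone, had a log2 fold change of -0.27 (SE 0.20, range -0.44 to -0.12).

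The interferon element core GAAANNGAAA, searched on both strands from 250 bases before to 50 after the start of 27025 genes (RefSeq, GRCm38.p6), occurred in 3.99% of all windows. It occurred in 23 of the 43 interferon-stimulated genes with a window (53.5%). The window of Isg15 (chr4:156200769-156201068, minus strand) is shown because it is the clearest case, with 3 overlapping matches in capitals that began 78, 72 and 66 bases before the start.
Isg15: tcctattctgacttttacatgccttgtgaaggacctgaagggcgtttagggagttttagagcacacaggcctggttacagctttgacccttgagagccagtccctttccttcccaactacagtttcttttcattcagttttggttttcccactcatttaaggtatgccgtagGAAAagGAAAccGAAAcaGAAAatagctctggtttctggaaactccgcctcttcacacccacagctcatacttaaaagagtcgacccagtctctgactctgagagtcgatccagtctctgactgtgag
This sequence belongs to a gene whose level did not separate the groups at this age.

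The sensors of double-stranded RNA and their adaptors gave 16 tested genes, with 4 log2 fold changes above 0, 12 below and a median of -0.11 (-0.19 without saline replicate 1 to -0.03 without MIA replicate 1). None was called. Tlr3, the endosomal receptor of Poly(I:C), stood at 15.8, 25.8 and 29.3 CPM in saline and at 11.6, 24.5 and 28.0 CPM in MIA. The pair of replicate 1 libraries was lower than the other 4 in both groups, and the fitted difference was -0.15 (SE 0.37), from -0.38 without MIA replicate 3 to 0.16 without MIA replicate 1. Ddx58 stood at 9.92, 15.9 and 17.0 CPM in saline and at 8.43 to 15.0 CPM in MIA, a log2 fold change of -0.27 (SE 0.29), which was -0.07 without MIA replicate 1 and -0.47 without saline replicate 1.

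Of 27 tested genes for cytokine receptors and the JAK-STAT kinases and factors behind them, 11 lay above 0 and 16 below, with a median of -0.01 (-0.14 without saline replicate 1 to 0.09 without MIA replicate 1) and none called. Il17ra, the receptor subunit for interleukin 17a, was nearly level across saline, at 42.3, 41.9 and 42.5 CPM. It stood at 22.4, 38.3 and 46.5 CPM in MIA, so the single low library was MIA replicate 1. Its log2 fold change was -0.24 (SE 0.26), 0.01 without that library and -0.47 without MIA replicate 3. Socs3, a feedback inhibitor of cytokine signalling, stood at 17.0 CPM in MIA replicate 1 and at 6.56 to 8.78 CPM in the other 5 libraries.

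Inflammatory cytokines and the genes of NF-kB feedback numbered 27 tested, 16 above 0 and 11 below, with a median of 0.04 (-0.07 without saline replicate 1 to 0.26 without saline replicate 2) and none called. The medians within replicate numbers were 0.44, -0.34 and 0.07. Ccl3, a chemokine that draws in leukocytes, stood at 59.4, 298 and 197 CPM in saline and at 466, 174 and 209 CPM in MIA. Both its highest and its lowest library carried replicate number 1. Il1a, the alpha form of interleukin 1, did not overlap between groups, at 52.7, 47.9 and 50.0 CPM in saline and 47.8, 42.1 and 47.7 CPM in MIA, a log2 fold change of -0.13 (SE 0.13, range -0.16 to -0.08). It was the sole member of the 27 that did not overlap, against 2.49% of all genes tested.

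ER folding and unfolded protein response genes, the chaperones and disulfide isomerases that fold secreted and membrane proteins, had 25 of 32 tested members below 0, 7 above and a median of -0.10. None was called. The median kept its sign in all 24 alternative settings, between -0.15 and -0.02, the last among cells with no neuron marker UMI. That setting kept 274 of 5559 cells of saline replicate 1 and 244 of 4991 of MIA replicate 1, but 953 of 1408 of MIA replicate 3. The ER median ran from -0.12 to -0.08 when single libraries were left out. These settings reuse the same 6 libraries. The medians of the double-stranded RNA sensors, MHC class II genes and immediate early genes also kept their sign in all 24. Within replicate numbers 1, 2 and 3 the ER median was 0.01, -0.17 and -0.13. The summed level of the list was 7210, 7800 and 7802 CPM in saline and 7069, 6647 and 6839 CPM in MIA. These sums did not overlap, although Hsp90b1, the member of highest level, was the sole one of the 32 that did not overlap by itself, against 2.49% of all genes tested. The ER list was the sole one among the 38 lists examined whose sums did not overlap, so this separation is only a description. Hspa5 (BiP), the main ER chaperone of the Hsp70 family, stood at 615, 750 and 725 CPM in saline and at 697, 598 and 610 CPM in MIA, a log2 fold change of -0.13 (SE 0.15, range -0.21 to -0.07). Pdia3, a disulfide isomerase, stood at 793, 826 and 814 CPM in saline and at 798, 683 and 584 CPM in MIA, a log2 fold change of -0.24 (SE 0.16, range -0.35 to -0.13). Prdx4, an ER peroxidase, had a log2 fold change of -0.43 (SE 0.28), and -0.07 without saline replicate 1, where it stood at 167 CPM.

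The ER stress element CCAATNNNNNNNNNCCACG occurred in 37 of the 27025 windows on either strand (0.137%) and in 8 of 27 ER folding genes with a window (29.6%), namely Hspa5, Hsp90b1, Pdia6, Canx, Calr, Dnajc3, Creld2 and Syvn1. The windows of Hsp90b1 (chr10:86705395-86705694, minus strand) and Hspa5 (chr2:34771840-34772139, plus strand) are shown, with the fixed bases of the element in capitals, since the first had the highest level of the list and the second is the main ER chaperone. In Hsp90b1 the matches began 212 bases before the start and, on the reverse strand, 107 bases before it; in Hspa5 the match began 65 bases before.
Hsp90b1: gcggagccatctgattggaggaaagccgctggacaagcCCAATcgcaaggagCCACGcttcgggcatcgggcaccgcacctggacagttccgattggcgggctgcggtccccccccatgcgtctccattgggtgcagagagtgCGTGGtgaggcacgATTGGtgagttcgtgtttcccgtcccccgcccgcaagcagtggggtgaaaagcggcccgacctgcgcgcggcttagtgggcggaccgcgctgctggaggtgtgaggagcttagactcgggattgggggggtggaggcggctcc
Hspa5: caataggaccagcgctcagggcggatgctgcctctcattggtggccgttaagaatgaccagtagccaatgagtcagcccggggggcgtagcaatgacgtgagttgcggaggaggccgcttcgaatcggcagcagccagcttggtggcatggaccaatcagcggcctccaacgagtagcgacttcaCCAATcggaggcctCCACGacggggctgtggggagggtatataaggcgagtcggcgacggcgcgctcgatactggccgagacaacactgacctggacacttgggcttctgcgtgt
Of these, Hsp90b1 did not overlap between groups and Hspa5 did.

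Other lists of protein quality control follow. Heat shock chaperones had 13 of 18 tested members below 0 and a median of -0.03 (-0.08 without MIA replicate 3 to 0.01 without saline replicate 1), and the heat shock element GAANNTTCNNGAA occurred in 4 of 15 of their windows (26.7%) against 0.662% of all windows. Integrated stress response genes had 10 of 13 above 0 and a median of 0.10, from -0.03 without MIA replicate 1 to 0.16 without MIA replicate 2. Proteasome core and cap genes, which degrade ubiquitinated proteins, had 32 of 33 tested members below 0 with a median of -0.11. That median ran from -0.23 without MIA replicate 1 to 0.08 without saline replicate 1. Psmd2, a subunit of the cap, did not overlap between groups, at 114, 95.1 and 95.7 CPM in saline and at 83.1, 94.9 and 94.9 CPM in MIA, where 2 of the MIA libraries differed from 2 of the saline libraries by under 1 CPM. It was the sole member of the 33 that did not overlap, against 2.49% of all genes tested. All 5 immunoproteasome and PA28 genes were below 0, with a median of -0.21, from -0.31 without saline replicate 2 to 0.02 without saline replicate 1. Psme2, the beta subunit of the PA28 activator, stood at 258, 171 and 160 CPM in saline and at 209, 153 and 136 CPM in MIA. Each MIA library was below the saline library of its number, and the log2 fold change was -0.24 (SE 0.25), from -0.44 without MIA replicate 1 to 0.01 without saline replicate 1. Nuclear genes of oxidative phosphorylation had 80 of 90 members below 0 and a median of -0.10, from -0.23 without saline replicate 3 to 0.11 without saline replicate 1. Without MIA replicate 1 the immunoproteasome and oxidative phosphorylation medians were -0.31 and -0.23. Leaving out saline replicate 1 leaves MIA replicate 1 without the library of its number. Without both replicate 1 libraries the medians of these 3 lists were -0.07, -0.07 and -0.02. Within replicate numbers 1, 2 and 3 they were -0.13, -0.02 and -0.13 for the proteasome, -0.30, 0.01 and -0.18 for the immunoproteasome and -0.21, -0.03 and -0.05 for oxidative phosphorylation. Without MIA replicate 3 they were -0.0015, -0.12 and -0.04 in the same order. No member of any of them was called.

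**Figure D2:**
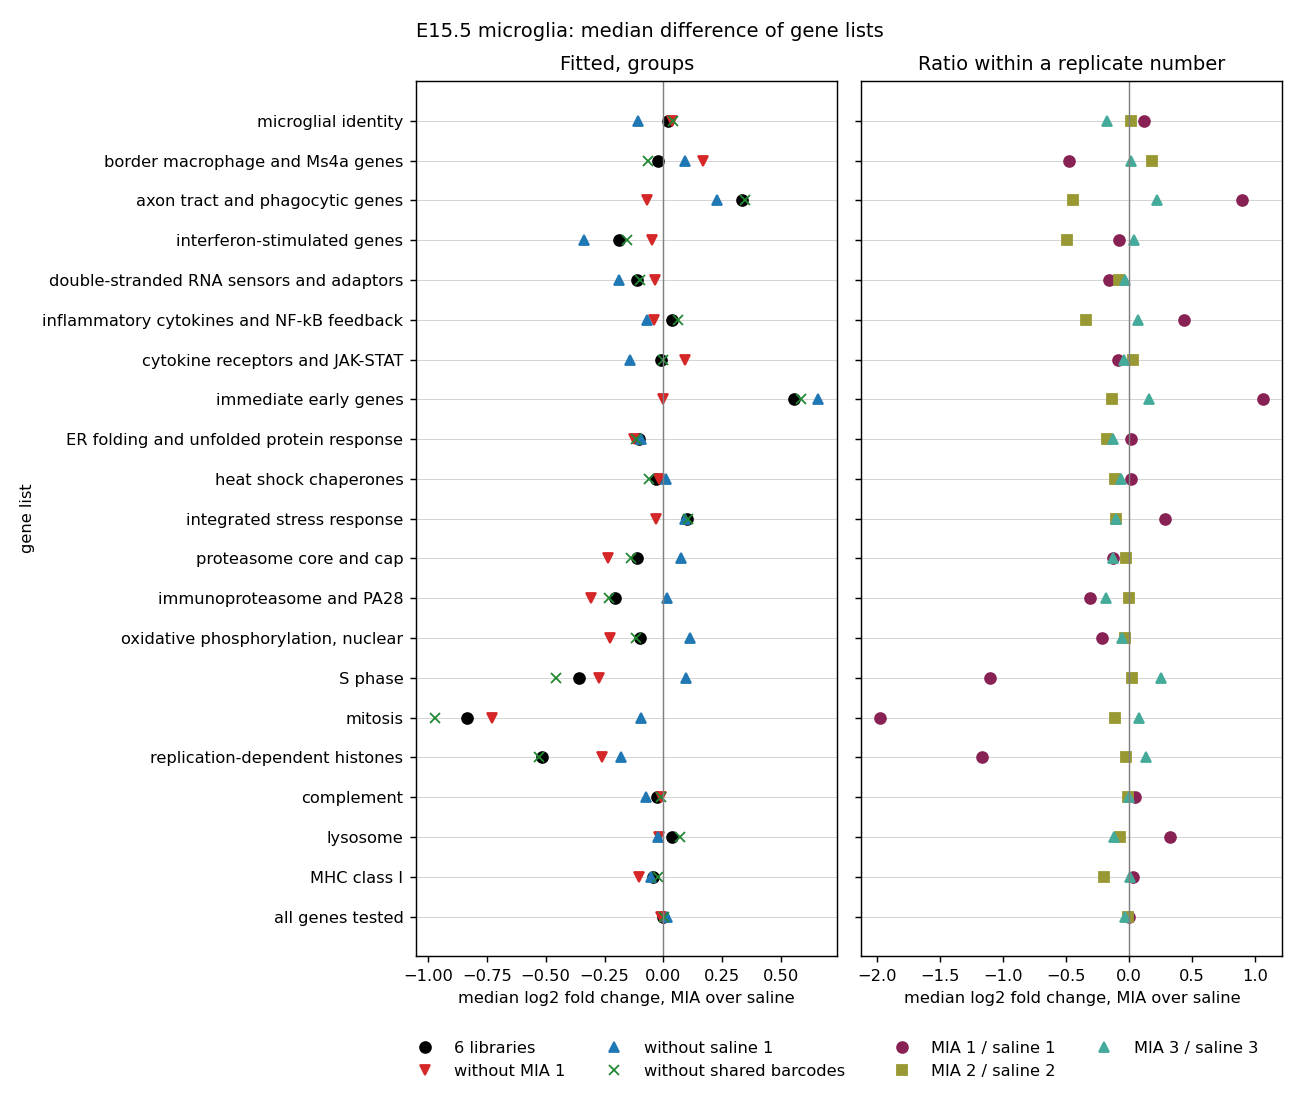
Median log2 fold change (MIA over saline) of 20 gene lists and of all genes tested, from the fit with all 6 libraries, without MIA replicate 1, without saline replicate 1 and without shared barcodes (left), and as the ratio within each replicate number (right); the scales of the panels differ. Mitosis genes ran from -0.83 with all libraries to -0.09 without saline replicate 1, and immediate early genes from 0.55 to 0.00 without MIA replicate 1. The ER list stayed below 0 on the left, as did others such as the interferon-stimulated genes, double-stranded RNA sensors, mitosis genes and histones.

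Cell cycle genes had the lowest medians. All 29 mitosis genes were below 0, with a median of -0.83 and none called, and the median was -0.09 without saline replicate 1 and between -1.10 and -0.73 without any other single library. The medians within replicate numbers 1, 2 and 3 were -1.97, -0.11 and 0.08. The summed mitosis genes reached 3453 CPM in saline replicate 1 and 876 to 1306 CPM in the other 5 libraries. Mki67, the proliferation antigen Ki-67, stood at 275, 121 and 170 CPM in saline and at 58.0, 102 and 180 CPM in MIA, a log2 fold change of -0.74 (SE 0.46), or -0.35 without saline replicate 1 and -1.22 without MIA replicate 3. Of 28 S phase genes, 27 were below 0 with a median of -0.36, which was 0.09 without saline replicate 1 and between -0.55 and -0.27 without any other single library. Mcm4, a subunit of the replicative helicase, did not overlap, at 50.1, 32.4 and 34.4 CPM in saline and at 22.5, 32.0 and 31.2 CPM in MIA. Outside replicate number 1 the gap was small. Mcm4 was the sole member of the 28 that did not overlap, against 2.49% of all genes tested.

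Replication-dependent histone genes had 54 of 60 members below 0 and a median of -0.52. The median was -0.18 without saline replicate 1, -0.26 without MIA replicate 1, 0.04 without both of them and -0.82 without MIA replicate 2. Their copies are alike in sequence and mostly lack a poly(A) tail, so single members are uncertain. For 5 of the 60 the groups did not overlap, all with MIA lower, against 1.33% of all genes tested. One of these, Hist1h3c, stood at 57.3, 26.9 and 28.0 CPM in saline and at 8.90, 24.1 and 20.9 CPM in MIA. Its log2 fold change was -1.06 (SE 0.45, range -1.37 to -0.60, the last without saline replicate 1).

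A sum over cells cannot tell fewer dividing cells from less RNA per dividing cell, so dividing cells were also counted at a fixed depth. Cells were thinned to 2000 UMIs and called dividing with at least 3 UMIs of mitosis genes. Dividing cells made up 38.1%, 10.1% and 9.94% of saline cells and 9.64%, 10.2% and 14.2% of MIA cells. Saline replicate 1 stood apart, with a 95% Clopper-Pearson interval of 36.7% to 39.5%, and the other 5 libraries lay between 9.64% and 14.2%. The means were 19.4% ± 16.2 in saline and 11.3% ± 2.51 in MIA (SD, n = 3 each), a difference of -8.01 points (two-sided exact permutation test, p = 0.7, the smallest possible p being 0.1). Without saline replicate 1 the difference was 1.35 points. Of the neuron-marked barcodes outside the rule, 11.6% to 28.4% per library met the same count of mitosis UMIs.

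Immediate early genes, transcription factors and phosphatases switched on within minutes of a stimulus, had 24 of 25 members above 0 and a median of 0.55. None was called, and the median was 0.00 without MIA replicate 1 and between 0.50 and 0.82 without any other single library. Fos stood at 2.51, 1.50 and 1.78 CPM in saline and at 79.9, 1.55 and 2.44 CPM in MIA. Egr1 stood at 2.40, 6.33 and 4.39 CPM in saline and at 65.7, 2.25 and 7.38 CPM in MIA. Only MIA replicate 1 was high for either gene, and it was singled out for leaving out because of these levels, so its values for Fos and Egr1 are only a description. With all libraries their log2 fold changes were 3.85 (SE 1.47) and 2.54 (SE 1.14), and without MIA replicate 1 they were 0.03 and 0.12. Dusp1, a phosphatase that ends MAP kinase signalling, had 1.98 with and -0.03 without that library. At 2000 UMIs per cell, 11.0% of the cells of MIA replicate 1 (95% interval 10.13% to 11.98%) held a UMI of Fos and 10.2% one of Egr1, against 0.188% to 0.538% and 0.276% to 1.00% in the other 5 libraries. Among the neuron-marked barcodes of the same library, 3 of 520 (0.577%) had a Fos UMI and 3 an Egr1 UMI. The cAMP element TGACGTCA occurred in 3 of 21 immediate early windows (14.3%; Dusp1, Btg2 and Maff) and in 2.03% of all windows.

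Axon tract and phagocytic genes, a set of the amoeboid microglia of early white matter, had 18 of 19 members above 0 with a median of 0.33, from -0.07 without MIA replicate 1 to 0.52 without MIA replicate 2. Spp1 (osteopontin), a secreted matrix protein and marker of that state, stood at 48.7, 165 and 46.2 CPM in saline and at 1007, 62.1 and 54.5 CPM in MIA. Its log2 fold change was 2.11 (SE 1.20), and -0.57 without MIA replicate 1. Gpnmb, a lysosomal glycoprotein of phagocytes, went likewise from 1.58 (SE 1.17) to -1.13. At 2000 UMIs, Spp1 was found in 10.3% of the cells of MIA replicate 1 and in 1.51% to 3.19% of those of the other 5 libraries. In the neuron-marked barcodes of MIA replicate 1 it was found in 5.38%. The chemokine Ccl4 was found in 10.7% of the cells of MIA replicate 1, in 1.80% to 5.69% elsewhere and in 2.31% of those neuron-marked barcodes.

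**Figure D3:**
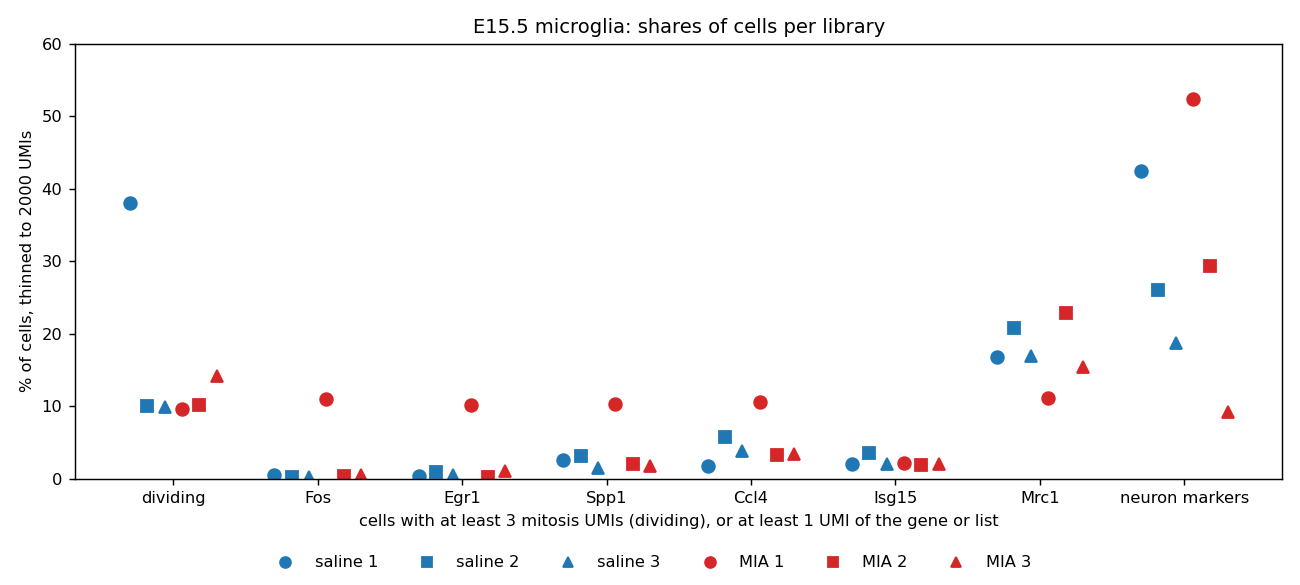
Share of cells (%) per library after thinning to 2000 UMIs that were dividing or held at least 1 UMI of a gene or of the neuron markers, with saline in blue and MIA in red. Saline replicate 1 was highest for dividing cells (38.1%), and MIA replicate 1 for Fos, Egr1, Spp1, Ccl4 and the neuron markers (52.4%).

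RNA of other cell types moved with single libraries. The summed neuron markers were 456, 345 and 154 CPM in saline and 1589, 405 and 64.2 CPM in MIA, and 42.5%, 26.1% and 18.7% of saline cells and 52.4%, 29.4% and 9.15% of MIA cells held a UMI of them at 2000 UMIs. All 14 were above 0 with a median of 1.12, from -0.43 without MIA replicate 1 to 1.64 without MIA replicate 3. Tubb3, a neuronal tubulin, stood at 299 CPM in MIA replicate 1 and at 4.51 to 65.2 CPM in the other 5 libraries. Progenitor markers such as Fabp7 had a median of 1.15, or -0.42 without MIA replicate 1 and above 0 without any other single library. MIA replicate 1 was thus high both in neuron marker RNA and in the immediate early and axon tract genes, and the part of that RNA in those values was not tested. Nrgn, a neuronal protein chosen after its values were seen, had the lowest unadjusted p of all genes, at levels of 0.0975 to 0.184 CPM in saline and 0.549 to 1.86 CPM in MIA.

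Border macrophage and Ms4a genes, which mark the macrophages of the meninges and perivascular spaces, had 8 of 18 members above 0, 10 below and a median of -0.02. That median was 0.17 without MIA replicate 1, and ran from -0.50 without MIA replicate 2 to 0.18 without MIA replicate 3, so it does not show that the groups were alike. Mrc1, the mannose receptor, stood at 154, 202 and 161 CPM in saline and at 82.7, 254 and 141 CPM in MIA, so the MIA libraries spanned the saline ones. At 2000 UMIs it was found in 16.8%, 20.8% and 17.0% of saline cells and in 11.1% to 22.9% of MIA cells, against 1 of 520 (0.192%) of the neuron-marked barcodes of MIA replicate 1. Adult globins, the haemoglobin chains of red cells, summed to 766, 4363 and 836 CPM in saline and to 69.6, 4243 and 571 CPM in MIA. In 5 libraries 95.6% to 99.3% of these UMIs came from the top 1% of cells, and in MIA replicate 1 62.7%. Both replicate 2 libraries were high. The 6 tested globins had a median of -0.35, from -2.53 without MIA replicate 2 to 0.99 without saline replicate 2, and -1.96 without shared barcodes. Red cell genes other than globins summed to 48.5 to 61.3 CPM per library, and markers of endothelial cells, pericytes and fibroblasts to 31.2 to 57.3 CPM.

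None of the other lists held a called gene. Their medians follow with the number of genes tested and, in parentheses, the range when single libraries were left out. Complement genes had a median of -0.02 over 16 (-0.10 to 0.08), lysosomal genes 0.04 over 33 (-0.02 to 0.12) and lipid handling and clearance receptors 0.05 over 19 (-0.06 to 0.12). MHC class I genes had -0.04 over 13 (-0.20 to 0.11), and MHC class II genes, which present antigen to helper T cells, -0.21 over 5 (-0.31 to -0.04). Heme, iron and oxidant defence genes had -0.08 over 18 (-0.13 to 0.03, the last without MIA replicate 3). Integrins and talins had -0.13 over 18 (-0.25 to 0.05, the last without MIA replicate 1), purinergic receptors and ectoenzymes -0.02 over 10 (-0.12 to 0.02) and CSF1R and TGF-beta signalling genes -0.03 over 13 (-0.11 to 0.16). Hmox1, which breaks down heme, stood at 343, 394 and 313 CPM in saline and at 409, 407 and 196 CPM in MIA. B2m, the light chain of MHC class I, stood at 1162, 1420 and 1114 CPM in saline and at 1267, 1379 and 1302 CPM in MIA. Neither separated the groups. Cytosolic ribosomal proteins had a median of -0.04 over 81 tested (-0.10 to 0.03) and SR and hnRNP proteins -0.03 over 40 (-0.07 to -0.0034).

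Mitochondrial transcripts and genes on ribosomal RNA repeats, which are tied to RNA quality, were highest in MIA replicate 3, the smallest library. Mitochondrial transcripts had 12 of 13 members above 0 and a median of 0.22, from -0.10 without MIA replicate 3 to 0.48 without MIA replicate 1. Their sum was 43507 CPM in MIA replicate 3 against 22235 to 32317 CPM in the other 5 libraries. Gm42418, a gene on ribosomal RNA repeats, stood at 1419, 2798 and 4546 CPM in saline and at 1910, 3004 and 10976 CPM in MIA. Its log2 fold change was 0.86 (SE 0.70), and -0.24 without MIA replicate 3, and the median of the 3 genes on these repeats went from 0.86 to -0.49 (1.31 without saline replicate 3). Nuclear long RNAs had a median of 0.16 over 7 tested, from -0.10 without saline replicate 1 to 0.42 without saline replicate 2. Their sum was 9407 CPM in saline replicate 1 and 15733 to 18892 CPM in the other 5 libraries, so here saline replicate 1 stood apart and not MIA replicate 3.

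The replicate numbers carried more of the variation than the treatment. Over the 2878 genes of at least 50 CPM, replicate number held 77.7% of the summed squares among libraries, treatment 6.33% and the rest 15.9%. Replicate number has 3 levels and treatment 2, so replicate number would tend to hold the larger share even if neither mattered. Libraries of the same number deviated together, with correlations across genes of 0.540, 0.242 and 0.687 for numbers 1, 2 and 3, against -0.626 to 0.0976 for different numbers. Without shared barcodes they were 0.494, 0.118 and 0.693. Genes are not independent replicates, and these values are descriptions. Deviations from a group's mean sum to 0 over its 3 libraries, so values above 0 for the same number push the others below 0. Without that centring, levels of saline replicate 1 correlated less with MIA replicate 1 (0.972) than with MIA replicate 2 (0.983). Saline replicates 2 and 3 correlated most with the MIA library of their number (0.997 and 0.994). The highest level of a gene was in saline replicate 1 for 891 genes (31.0%) and in saline replicate 3 for 778 (27.0%). The lowest was in MIA replicate 1 for 847 (29.4%) and in MIA replicate 3 for 766 (26.6%). MIA replicate 2 was highest for 83 and saline replicate 2 lowest for 160. With the replicate number as a block the edgeR test again called 0 of 13699 genes (0%), with 133 under 0.05 before adjustment. On replicates 2 and 3 alone, with the block, little is left to measure a gene's own spread, which leans on that of other genes. In that setting the test called 2 of 13572 genes (0.0147%). These were Hist1h2ap, a histone H2A gene, and F13a1, the transglutaminase chain of factor XIII and a border macrophage marker, both named after their values were seen. Hist1h2ap stood at 68.4, 117 and 17.9 CPM in saline and at 12.6, 279 and 41.5 CPM in MIA. F13a1 stood at 15.8, 14.8 and 4.75 CPM in saline and at 2.53, 37.3 and 10.5 CPM in MIA. Both were higher in MIA in numbers 2 and 3 and lower in number 1, and the fit with all 3 pairs called neither.

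**Figure D4:**
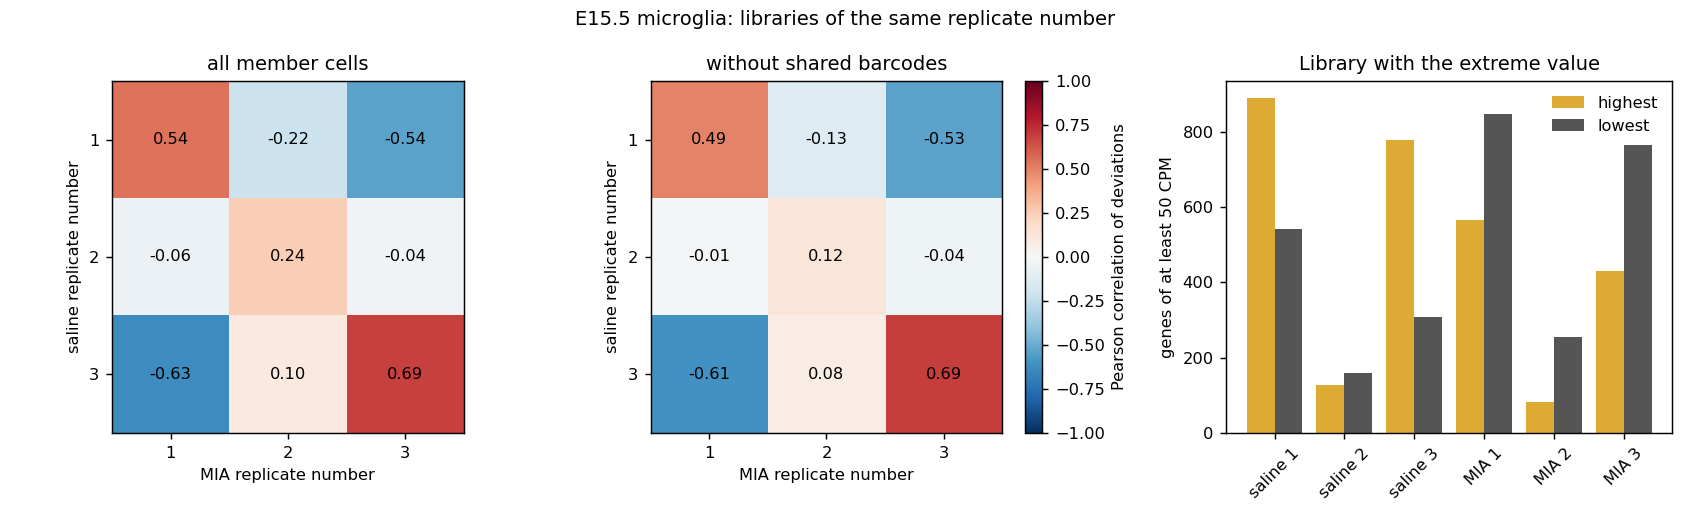
Pearson correlation, across genes, of each saline library's deviation from its group mean with that of each MIA library, for all cells (left) and without shared barcodes (middle), and the number of genes of at least 50 CPM whose highest or lowest level was in each library (right). The diagonal, libraries of the same number, held the highest values (0.540, 0.242 and 0.687 with all cells), and the replicate 2 libraries were rarely extreme.

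The last comparison set E15.5 against E13.5, the nearest age, where 12762 cells of 6 libraries met the same rule 1 day after the injection. At E13.5 saline replicates 1, 2 and 3 held 1150, 1779 and 3211 cells, and MIA replicates 1, 2 and 3 held 272, 359 and 5991. In MIA replicates 1 and 2 of E13.5, 30.5% and 69.9% of the cells had shared barcodes. Without these, 189 and 108 cells were left. Over 12 libraries the edgeR interaction test called 0 of 14081 genes (0%) whose response to MIA differed between the ages, with 48 under 0.05 before adjustment and 36 by DESeq2. The median log2 fold change of the interferon-stimulated genes was 0.44 at E13.5 and -0.19 at E15.5, and the median fitted difference was -0.62. Isg15 had 1.12 (SE 0.43) at E13.5 and -0.15 (SE 0.59) at E15.5, a difference of -1.24 (SE 0.83) that did not pass. Without E15.5 saline replicate 2, the E15.5 value of Isg15 was 0.90 and the E15.5 median of the interferon-stimulated genes 0.05. For Cd52 the response was 0.04 (SE 0.15) at E13.5 against -0.46 (SE 0.15), and the difference of -0.45 (SE 0.22) did not pass. Cd52 was picked for its low E15.5 values in MIA, which also enter this difference, so its size is only a description. The responses come from a separate fit at each age and the differences from the joint fit of 12 libraries, so a difference need not equal that of the responses beside it. The E13.5 library labelled MIA replicate 2 shared 61.3% of its cells' barcodes with MIA replicate 3 of E15.5, and without shared barcodes the interaction test again called 0 genes. Without them the E13.5 median of the interferon-stimulated genes was 0.36 and the median difference -0.62, and Isg15 had 1.58 (SE 0.53) at E13.5 and a difference of -1.61 (SE 0.92). Without E13.5 MIA replicate 2 these were 0.26, -0.47, 1.24 (SE 0.51) and -1.40 (SE 0.91). The difference for Cd52 was -0.57 (SE 0.24) without shared barcodes and -0.59 (SE 0.21) without that library, and none of these differences passed the edgeR test.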

How the data were processed

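Gene-by-barcode UMI count matrices of 6 sorted microglia libraries at E15.5, and of 6 at E13.5 for comparison, were analysed. The authors deposited raw UMI counts in whole numbers, made per the submitters' processing notes with Cell Ranger 3.1.0 on mm10; the study's methods name a later Cell Ranger release for these libraries, and which of them made the files is not known. Members, gene lists and named genes were chosen with earlier results of these data known. UMIs of barcodes that met the rule were summed per library; the library was the replicate. MIA and saline sums were compared with the edgeR quasi-likelihood test (TMM, filterByExpr by group, no covariate, Benjamini-Hochberg, threshold 0.05). The fit was also run on simulated sums with known changes and no difference between replicate numbers, and its outcome is not given here. CPM values use TMM library sizes, except the summed adult globins, which use the plain UMI totals of the kept cells. The study used DESeq2 with sex and sequencing batch as covariates, which the labels do not give for these libraries, so DESeq2 without them, the replicate number as a block and the level of Xist as a covariate were alternatives.

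The numbers were taken to pair the libraries because each same-numbered correlation was over 0.1 (0.540, 0.242, 0.687), a choice made from these same data. The labels do not say what a number marks. No doublets were removed in the main analysis: the automatic Scrublet threshold marked at most 5 cells per library, so an alternative removed the highest scores at 0.8% per 1000 cells. The age interaction was fitted over 12 libraries. Shares of cells used thinning to 2000 UMIs, leaving out shallower cells, and a two-sided exact permutation test. Intervals cover counting error only. Named genes were the up to 10 per direction with the lowest p among genes called, filled up from those of at least 50 CPM without overlap between groups; genes called with the block or without MIA replicate 1; the 2 to 4 members of lowest p and the defining members of each list; and the 4 genes of the rule. Removing shared barcodes, globin-rich cells, both replicate 1 libraries or, for the E13.5 values, E13.5 MIA replicate 2 was chosen after seeing the data. Promoter windows came from RefSeq. Versions were Python 3.11.15, numpy 2.4.6, pandas 2.3.3, scipy 1.17.1, scanpy 1.11.5, R 4.3.3, edgeR 4.0.16, DESeq2 1.42.0 and limma 3.58.1.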

Additional observations from a re-analysis of the deposited data

How the results depend on the processing

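The count of 0 genes called between MIA and saline was the same in 23 of 24 alternatives, which changed scaling, tool, filters, cells, libraries or the block. The exception, the replicate block on replicates 2 and 3 only, called 2 genes. Counts under 0.05 before adjustment ran from 26 to 644, the highest without MIA replicate 3, the smallest and most barcode-sharing library. Those 644 were 4.56% of the genes tested in that setting, not above the share of 0.05 reached when nothing differs. The age interaction called 0 genes in all 17 alternatives, with 33 to 212 under 0.05 before adjustment. With the replicate number as a block 0 genes were called, and without shared barcodes as well 0 with 118 under 0.05, so the pairing changed no other call. The difference in dividing cells, -8.01 points, was 1.35 points without saline replicate 1 and ran from -12.7 to 1.35 points when each library was left out in turn; the cause was not tested. It was -6.60 points at 1000 UMIs, -13.3 without thinning, -10.9 with at least 1 UMI and -6.65 with at least 5. Among 906 list medians under alternatives, 139 changed sign and 75 moved by more than the spread, and among 4094 values of 174 named genes, 270 changed sign and 2 passed the test, those of Hist1h2ap and F13a1. With 3 libraries per group and a median standard error of 0.20, small differences of single genes could not be told from the spread.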
